A study of Mus musculus with 15 samples.

Results

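U2af1 and 5 partner genes of 3' splice-site recognition (U2af2, U2af1l4, Sf1, Sf3b1 and Sf3a1) were examined in lumbar motor neurons of a mouse model of spinal muscular atrophy (SMA). They are 6 of the 36144 gene symbols in the deposited gene table, and U2af1 was also followed through the 9 of its transcripts that are present among the 118489 transcripts measured. U2af1 and its transcripts had been picked with results from these same libraries in view, so their values are given as a description without a test. The other 5 genes were also chosen with earlier results of these data known, and were compared between groups with tests fitted and adjusted over all genes.

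The neurons came from segments L1 to L3 of the spinal cord, carried the retrograde tracer cholera toxin subunit B, and were cut out by laser-capture microdissection at postnatal day 6. All mice had an FVB background and, in every group including the controls, carried the human transgenes SMN2 and SMNΔ7. WT denotes littermates with both mouse Smn alleles (Smn+/+;SMN2;SMNdelta7) and SMA denotes mice without mouse Smn (Smn-/-;SMN2;SMNdelta7), both given vehicle. In 3 further groups SMA mice received MW150 (a p38α MAP kinase inhibitor, 5 mg/kg), Pifithrin-α (a p53 inhibitor, 2.2 mg/kg; SMA+Pifithrin-alpha below) or SMN-C3 (a modifier of SMN2 splicing, 3 mg/kg), injected into the peritoneum each day from postnatal day 0. Each of the 5 groups had 3 libraries, described as biological replicates, with male and female mice in equal proportion. Whether a library pooled several animals is not given in the sources used here. Levels are given in TPM, an abundance unit that corrects for transcript length and is scaled to a fixed sum per library.

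A 3' splice site is read in steps. SF1 binds the branch point, the large U2AF subunit (U2AF65, from U2af2) binds the polypyrimidine tract, and the small subunit (U2AF35, from U2af1) contacts the AG at the intron's end. The U2 snRNP, with SF3A1 and SF3B1 among its proteins, then takes over the branch point. SMN, the protein that is reduced in SMA, assembles Sm proteins onto the snRNAs of such particles.

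U2AF35 exists in a pair of protein isoforms, because the pre-mRNA includes either exon 3 (U2AF35a, transcript U2af1-201) or the alternative exon Ab (U2AF35b, U2af1-202). A transcript with both exons (U2af1-208) is annotated as a target of nonsense-mediated decay (NMD), the pathway that degrades messages with an early stop codon. Exons Ab and 3 are shown here because the choice between them defines the protein isoforms. Both are 67 bases long, and 44 of the 67 positions are identical in an ungapped comparison. Capitals mark the positions that differ. The sequences are written 5′ to 3′ on the minus strand of mouse genome GRCm38 and were read from the GENCODE M21 transcripts, with exon Ab at chr17:31652502-31652568 and exon 3 at chr17:31651646-31651712.
exon Ab: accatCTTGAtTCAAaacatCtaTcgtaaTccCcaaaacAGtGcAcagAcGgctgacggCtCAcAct
exon 3: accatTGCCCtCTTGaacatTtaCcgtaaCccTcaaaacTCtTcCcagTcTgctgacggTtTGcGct

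The values below turn on another transcript, U2af1-207, in which exon 1 is joined directly to exon 4, so that exon 2 and both alternative exons are left out. The skipped exon 2 (chr17:31654979-31655066, 88 bases), present with these ends in 6 of the 9 transcripts, codes for part of the first zinc finger of the protein.
exon 2: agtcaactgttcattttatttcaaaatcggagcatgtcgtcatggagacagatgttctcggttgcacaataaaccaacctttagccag
The exon junctions that differ among these messages are shown as 30 bases, with 15 from each exon and the downstream exon in capitals. The first and the fourth occur in 1 of the 9 transcripts each, whereas U2af1-205 shares the junction of exon 3 with exon 4 and that of exon Ab with exon 3.
exon 1 to exon 4, U2af1-207: caccgaaaaagacaaGTGCTGTGAGCGACG
exon 1 to exon 2, U2af1-201: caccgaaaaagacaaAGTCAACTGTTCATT
exon 3 to exon 4, U2af1-201: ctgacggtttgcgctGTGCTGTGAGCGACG
exon Ab to exon 4, U2af1-202: ctgacggctcacactGTGCTGTGAGCGACG
exon Ab to exon 3, U2af1-208: ctgacggctcacactACCATTGCCCTCTTG
The skipping junction spans 9758 bases of the gene, from the end of exon 1 at position 31658653 to the start of exon 4 at 31648894. The ordinary junction from exon 1 to exon 2 spans 3586 bases.

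U2af1 lies on chromosome 17 (GRCm38, chr17:31647081-31658892, minus strand). Of its 9 transcripts, U2af1-201 (1046 bases) and U2af1-202 (923 bases) hold the full coding sequence of 717 bases. U2af1-208 (975 bases) and U2af1-209 (722 bases) are annotated as NMD targets, U2af1-203, U2af1-204 and U2af1-206 as retained introns, and U2af1-205 as a processed transcript. U2af1-207 (532 bases, 6 exons) is annotated as protein coding, with a coding sequence of 378 bases that starts only in exon 5. The start codon shared by U2af1-201 and U2af1-202 is also present in U2af1-207. Read from that ATG, U2af1-201 and U2af1-202 each had 239 codons before a stop, U2af1-208 had 75, U2af1-209 had 45 and U2af1-207 had 26. Exons 2 and 3 together have 155 bases, which leaves a remainder of 2 after division by 3, so leaving them out shifts the reading frame.

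**Figure D1:**
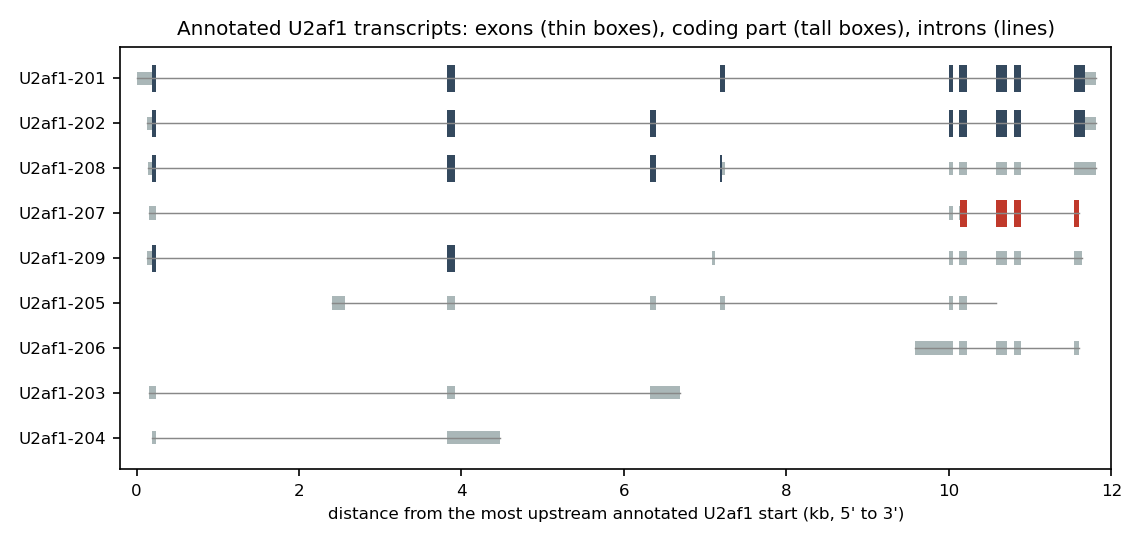
The 9 annotated U2af1 transcripts drawn to scale, with distance from the most upstream annotated start in kilobases on the x axis and 1 transcript per row. Thin boxes are exons and tall boxes their annotated coding part (red for U2af1-207), which shows U2af1-207 passing from exon 1 straight to exon 4 and coding only from exon 5 onward.

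The level of U2af1-207 was estimated from reads that largely could have come from other U2af1 transcripts. Of its 502 windows of 31 bases, 30 occur in no other annotated transcript, and all 30 cross the junction of exon 1 with exon 4. U2af1-201 had 136 windows of its own and U2af1-202 had 26. U2af1-208 had none, so its level rests wholly on how shared reads were divided. The annotated 3' end of U2af1-207 lies at position 31647289, while U2af1-201 and U2af1-202 extend to 31647081. How many reads crossed each junction was not tested, since the tables hold estimated levels only.

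Some features of the whole set of libraries bear on what follows. Smn1, the mouse gene deleted in SMA, was between 8.97 and 23.3 TPM in WT and between 0 and 1.498 TPM in the 12 libraries of the other groups, as the labels state. All 6 motor neuron markers (Chat, Isl1, Mnx1, Slc18a3, Slc5a7 and Prph) were detected in every library. Their summed level was 1256 to 2466 TPM in WT, 2150 to 2698 TPM in SMA, 2265 to 2820 TPM in SMA+MW150, 980.0 to 2753 TPM in SMA+Pifithrin-alpha and 2323 to 2885 TPM in SMA+SMN-C3. WT 1 and SMA+Pifithrin-alpha 3 stood apart with 21.9% and 20.4% of TPM in mitochondrially encoded genes, against 3.76% to 12.6% in the other 13. The median gene was 0.24 higher in SMA than in WT on the log2(TPM + 1) scale, and 0.03 higher after median-of-ratios scaling, so changes are set beside that median.

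U2af1 was expressed at a higher level in vehicle-treated SMA motor neurons than in WT. The 3 WT libraries had 54.4, 78.3 and 82.4 TPM. The SMA libraries had 162, 186 and 145 TPM. All SMA libraries lay above all WT libraries, with means of 71.7 ± 15.1 and 164 ± 20.8 TPM (SD, n = 3 each), a ratio of 2.29. Among all genes tested, 14.5% lay above WT without overlap in this comparison, and nothing is read from that share here because U2af1 was picked for its pattern.

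With MW150 the U2af1 levels were 134.6, 132.6 and 135.7 TPM, the narrowest spread of the 5 groups. Pifithrin-α gave 144.7, 117.1 and 51.4 TPM, the widest spread, and the lowest of these values came from the library with the high mitochondrial share. With SMN-C3 the levels were 84.8, 96.2 and 83.3 TPM. The order of the group means was SMA (164), SMA+MW150 (134), SMA+Pifithrin-alpha (104), SMA+SMN-C3 (88.1) and WT (71.7 TPM). Every treated library lay below the lowest SMA library, although SMA+Pifithrin-alpha 1 did so by less than 1 TPM. Of the neighbours in this order, SMA and SMA+MW150 did not overlap and neither did SMA+SMN-C3 and WT, while SMA+Pifithrin-alpha overlapped with both of its neighbours and with WT. Of all genes, 3.41% lay below SMA without overlap with MW150, 9.76% with Pifithrin-α and 18.2% with SMN-C3, and 17.9% and 4.03% lay above WT with MW150 and SMN-C3.

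On the log2(TPM + 1) scale the U2af1 difference between SMA and WT was 1.20. It was 0.94 after median-of-ratios scaling and 1.02 to 1.31 when 1 library at a time was left out. Against SMA, the differences were -0.28 for MW150, -0.77 for Pifithrin-α and -0.89 for SMN-C3. The Pifithrin-α value was -0.33 without SMA+Pifithrin-alpha 3. Against WT they were 0.92, 0.43 and 0.31. The Pifithrin-α value against WT was 0.14 without SMA+Pifithrin-alpha 1, 0.29 without SMA+Pifithrin-alpha 2, 0.87 without SMA+Pifithrin-alpha 3 and 0.25 without WT 1. The SMN-C3 value against WT was 0.13 without WT 1. Median-of-ratios scaling gave 0.59 in place of 0.92 and -0.65 in place of -0.89. These comparisons share the SMA or the WT libraries, so they are not independent of each other.

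The transcript that differed most was U2af1-207. WT libraries had 0.313, 5.04 and 7.27 TPM of it, and SMA libraries 64.8, 83.8 and 53.0 TPM. With MW150 the values were 55.5, 40.9 and 34.1 TPM, and with Pifithrin-α 57.6, 31.6 and 13.5 TPM. With SMN-C3 they were 11.0, 23.8 and 16.0 TPM. In WT the transcript was therefore low in every library, and each of the 12 SMA libraries, treated or not, lay above the highest WT library. SMN-C3 libraries all lay below the lowest SMA library (53.0 TPM), whereas 1 library each of MW150 and Pifithrin-α lay within the SMA range. For scale, 11.5% of the transcripts tested lay above WT without overlap in SMA, 16% with MW150, 4.66% with Pifithrin-α and 4.55% with SMN-C3, and 13.1% lay below SMA with SMN-C3.

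**Figure D2:**
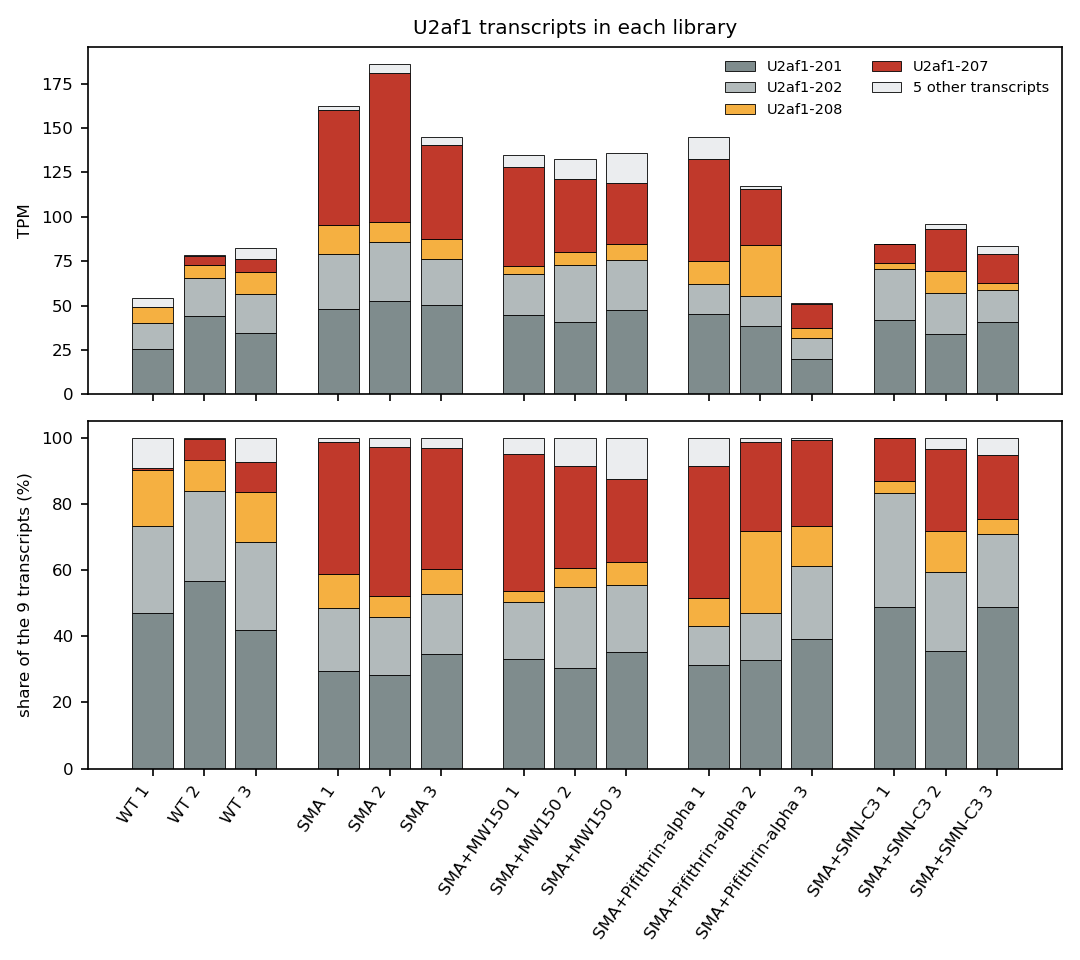
Stacked bars of U2af1 transcripts in each of the 15 libraries, in TPM (upper panel) and as the share of the 9 transcripts in percent (lower panel). The red segment, U2af1-207, is at most 7.27 TPM in WT and at least 53.0 TPM in SMA, and the grey segments (U2af1-201 and U2af1-202) vary less.

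As a share of the 9 transcripts, U2af1-207 made up 0.576%, 6.44% and 8.82% in WT. Its share was 40.0%, 45.0% and 36.6% in SMA. MW150 libraries had 41.2%, 30.9% and 25.1%, and Pifithrin-α libraries 39.8%, 26.9% and 26.3%. SMN-C3 libraries had 13.0%, 24.8% and 19.2%. The group means were 5.28 ± 4.24% in WT, 40.5 ± 4.24% in SMA, 32.4 ± 8.16% with MW150, 31 ± 7.62% with Pifithrin-α and 19.0 ± 5.87% with SMN-C3 (SD, n = 3 each).

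The share was 35.2 percentage points higher in SMA than in WT, and 32.9 to 37.2 points higher when 1 library was left out. Relative to SMA the difference was -8.09 points with MW150, -9.50 with Pifithrin-α and -21.5 with SMN-C3. The MW150 value was -12.5 without SMA+MW150 1 and -4.46 without SMA+MW150 3. The SMN-C3 libraries did not overlap with SMA, and the other treated groups did. Relative to WT the share stayed 27.1 points higher with MW150, 25.7 with Pifithrin-α and 13.7 with SMN-C3, with no overlap in any of these. By the ratio of a transcript to the rest of its gene, 7.13% of all transcripts lay above WT without overlap in SMA, 7.86% with MW150, 5.13% with Pifithrin-α and 6.95% with SMN-C3, and 7.15% lay below SMA with SMN-C3. Without both libraries of high mitochondrial share, the difference between SMA and WT was 32.9 points and that between SMA+SMN-C3 and WT 11.4 points.

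Most of the extra U2af1 signal was assigned to this transcript. Of the 92.7 TPM by which the mean of SMA exceeded that of WT, 63.0 TPM (67.9%) was U2af1-207. The corresponding share was 62.8% for MW150, 91.8% for Pifithrin-α and 77.8% for SMN-C3, each against WT. Where the gene difference was small this share depended on single libraries. Without WT 1 the SMN-C3 difference was 7.74 TPM for the gene and 10.8 TPM for U2af1-207 (140%), and without SMA+Pifithrin-alpha 1 the Pifithrin-α differences were 12.5 and 18.3 TPM (146%). Without U2af1-207 the level was 54.1, 73.2 and 75.2 TPM in WT and 97.4, 102 and 91.9 TPM in SMA, still without overlap. The ratio of group means to WT then went from 2.29 to 1.44 in SMA, from 1.87 to 1.35 with MW150, from 1.46 to 1.04 with Pifithrin-α and from 1.23 to 1.05 with SMN-C3. These ratios are of TPM without median-of-ratios scaling.

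The full-length messages also had higher TPM in SMA, before any scaling between libraries, but smaller shares. U2af1-201, the message with exon 3, had 25.7, 44.3 and 34.5 TPM in WT and 47.9, 52.5 and 50.2 TPM in SMA. U2af1-202, the message with exon Ab, had 14.3, 21.4 and 22.1 TPM in WT and 30.9, 33.0 and 26.2 TPM in SMA. Neither overlapped between the groups, in a comparison in which 11.5% of the transcripts tested lay higher without overlap. Median-of-ratios scaling divides by factors of 0.785, 0.948 and 1.08 in WT libraries and 1.09, 1.14 and 1.12 in SMA libraries. It would thus make these differences in level smaller, and U2af1-201 would then overlap because of WT 2. As shares of the 9 transcripts, U2af1-201 went from 48.5 ± 7.49% in WT to 30.8 ± 3.39% in SMA and U2af1-202 from 26.8 ± 0.519% to 18.3 ± 0.689% (SD, n = 3), again without overlap. By the ratio of a transcript to the rest of its gene, 7.56% of all transcripts lay lower without overlap.

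In the treated groups, U2af1-201 averaged 44.3 ± 3.64 TPM with MW150, 34.7 ± 13.1 with Pifithrin-α and 38.8 ± 4.02 with SMN-C3. U2af1-202 averaged 27.7 ± 4.45, 14.97 ± 3.15 and 23.5 ± 5.46 TPM in the same order. Together the pair made up 75.3 ± 7.84% of the 9 transcripts in WT, 49.1 ± 3.42% in SMA, 53.6 ± 2.75% with MW150, 50.5 ± 9.58% with Pifithrin-α and 71.2 ± 12.0% with SMN-C3. The SMN-C3 libraries (83.5%, 59.4% and 70.8%) all lay above the highest SMA library (52.7%) and overlapped with WT (73.4%, 83.9% and 68.6%). For the sum of a pair of transcripts, no background over all genes is given.

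The balance between exon Ab and exon 3 was much alike in the groups. U2af1-202 made up 35.8%, 32.5% and 39.0% of the sum of U2af1-201 and U2af1-202 in WT, and 39.2%, 38.6% and 34.3% in SMA. The means were 35.8 ± 3.25% in WT, 37.3 ± 2.68% in SMA, 38.4 ± 5.22% with MW150, 31.1 ± 4.53% with Pifithrin-α and 37.5 ± 5.58% with SMN-C3 (SD, n = 3). Each group overlapped with each other group. Between WT and SMA, the share of the message without these exons did not overlap, whereas the split within the pair did.

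Summing the same transcript levels by exon restates this contrast and is no separate evidence for it. The sums for exon 2 and exon 4 differ only by U2af1-207, counted for exon 4, and U2af1-203, counted for exon 2. Exon 2, with the same ends in 6 of the 9 transcripts, was carried by 66.5 ± 10.7 TPM in WT and 94.7 ± 4.69 TPM in SMA. Exon 4 was carried by 69.6 ± 15.5 TPM in WT and 162 ± 20.2 TPM in SMA. In WT the exons were thus close in level, and in SMA exon 4 exceeded exon 2. With SMN-C3 they were at 69.4 ± 4.37 and 85.8 ± 6.90 TPM. These sums come from the estimated transcript levels and not from reads counted over exons.

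**Figure D3:**
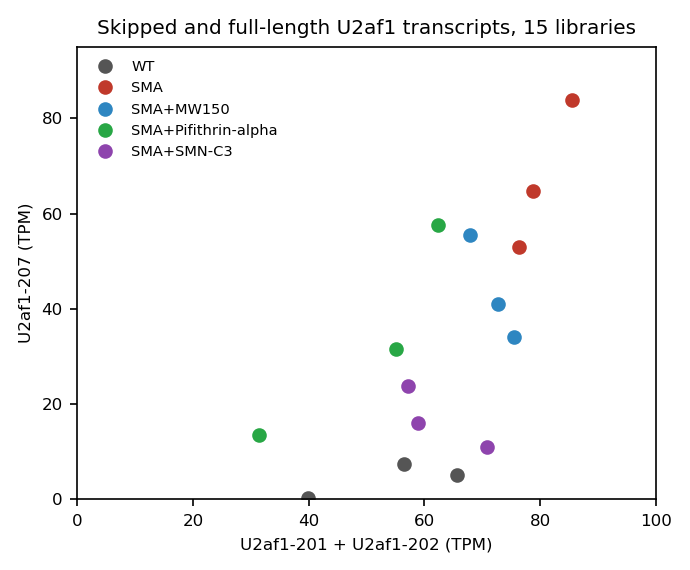
U2af1-207 (y axis, TPM) against the sum of U2af1-201 and U2af1-202 (x axis, TPM), 1 point per library, coloured by group. The 3 WT points lie along the bottom, at no more than 7.27 TPM, and the SMA points at the top right. SMA+Pifithrin-alpha 3 lies far to the left of the other SMA libraries and keeps a U2af1-207 share of 26.3%.

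Of the remaining 6 U2af1 transcripts, U2af1-208 had the highest level in each WT library, where it also lay above U2af1-207. U2af1-208, with both alternative exons, had 9.15, 7.28 and 12.5 TPM in WT libraries, and SMA libraries had 16.4, 11.6 and 10.9 TPM. Its share was 13.7 ± 3.94% in WT, 7.97 ± 1.98% in SMA, 5.31 ± 1.80% with MW150, 15.04 ± 8.46% with Pifithrin-α and 6.85 ± 4.94% with SMN-C3. The highest value, 28.8 TPM or 24.6%, was in SMA+Pifithrin-alpha 2. The WT and SMA shares overlapped, and the MW150 shares were 3.32%, 5.77% and 6.84%. Since U2af1-208 has no windows of its own, all its levels and shares rest on how shared reads were divided.

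U2af1-206, a retained-intron transcript that starts in the intron before exon 4, was at 0 TPM in 2 WT libraries and at 1.15 TPM in the third. It was at 2.13, 2.25 and 2.002 TPM in SMA and reached 6.64 TPM in SMA+MW150 3. U2af1-209 and U2af1-203 were listed at 0 in all 3 SMA libraries, and had 2.01 and 2.74 TPM in WT 1, the library with the high mitochondrial share. U2af1-204 did not exceed 3.15 TPM in any library and U2af1-205 did not exceed 2.48 TPM. Over the 9 transcripts, the share of SMA did not overlap with WT for 1 that was higher (U2af1-207) and 2 that were lower (U2af1-201 and U2af1-202), and overlapped for 6. By the ratio to the rest of the gene, 7.13% of all transcripts lay higher and 7.56% lower without overlap in that comparison.

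RNA from other cells of the spinal cord was present in the captured material. The summed levels of microglial, astrocyte and interneuron markers in SMA did not overlap with WT, and those of oligodendrocyte, vascular and red blood cell markers did. The summed level of 7 microglial markers was 15.2 to 42.4 TPM in WT, 76.3 to 116 in SMA, 65.4 to 85.5 with MW150, 22.8 to 66.2 with Pifithrin-α and 37.8 to 55.7 with SMN-C3. The order of their group means resembled that of U2af1, except that SMA+SMN-C3 (45.8 TPM) lay above SMA+Pifithrin-alpha (41.1 TPM). The 5 astrocyte markers summed to 150 to 218 TPM in WT, 238 to 496 in SMA, 201 to 414 with MW150, 104 to 230 with Pifithrin-α and 85.2 to 198 with SMN-C3. The 4 interneuron markers summed to 3.92 to 8.84 TPM in WT, 11.1 to 18.0 in SMA, 11.1 to 14.5 with MW150, 2.06 to 8.07 with Pifithrin-α and 4.14 to 8.37 with SMN-C3. The 6 oligodendrocyte markers had the highest sums, at 625 to 1882 TPM in WT, 708 to 3802 in SMA, 832 to 5298 with MW150, 406 to 1186 with Pifithrin-α and 543 to 1630 with SMN-C3. The 3 vascular markers averaged 36.5 TPM in WT and 41.5 TPM in SMA, and the 3 red blood cell markers 979 and 1534 TPM. Of all these markers Alas2, of red blood cells, was at 0 in 1 library and the others in none. Their part in the U2af1 values was not tested. In bulk samples of this kind, fewer cells of a type and less RNA per cell cannot be told apart.

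By similarity of pattern, the genes closest to U2af1 were Traf4 (Pearson r = 0.927), H2afj (0.912), Carhsp1 (0.905), Gpx3 (0.899) and Rab42 (0.888). They were taken from 7783 tested genes with a mean of at least 10 TPM. The correlation was computed over all 15 libraries on log2(TPM + 1) values centred on each library's median, and is a description because the libraries share their groups and their mitochondrial share. Traf4, which codes for an adaptor of the TRAF family, had 6.34, 13.6 and 15.7 TPM in WT libraries, 35.0, 37.7 and 40.7 TPM in SMA libraries and 14.1, 14.9 and 19.7 TPM with SMN-C3. Gpx3, a secreted glutathione peroxidase, had 40.1, 106 and 102 TPM in WT libraries, against 701, 323 and 302 TPM in SMA. Without centring the 5 closest genes were Traf4, Ankrd40, Sf3b5, Prr5 and H2afj. Sf3b5, a small subunit of the SF3B complex, was thus the only one of these that also belongs to the splice-site machinery considered here.

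The 5 partner genes showed no change that passed the test. Limma was fitted to the 15425 genes that reached 1 TPM in 3 or more libraries, and a change was called where its Benjamini-Hochberg adjusted p was below 0.05 in that comparison. Of 35 tests (5 genes, 7 comparisons), 0 were called and 0 had an unadjusted p under 0.05. The background was low too, with 0.363% of genes called in SMA against WT. It was 0.00648% in SMA+MW150 and likewise 0.00648% in SMA+Pifithrin-alpha against SMA, and 0.0648% in SMA+SMN-C3 against SMA. Against WT it was 0.143% with MW150, 0.117% with Pifithrin-α and 0.0194% with SMN-C3. Limma's F test over the 5 groups called 0.22% of genes and none of the 5.

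U2af2, which codes for the U2AF65 partner of U2AF35, was among the lower expressed. WT libraries had 5.29, 10.6 and 14.8 TPM, and SMA libraries 14.9, 12.9 and 18.3 TPM. The log2 change was 0.63 (SE 0.46, adjusted p = 0.504) and the groups overlapped. Without both libraries of high mitochondrial share it was 0.26, since WT 1 had the lowest WT value. MW150 libraries had 13.3, 19.5 and 18.9 TPM, Pifithrin-α libraries 14.5, 11.6 and 2.67 TPM, and SMN-C3 libraries 9.59, 12.5 and 11.9 TPM. The last of these groups lay below every SMA library, with a log2 change of -0.40 (SE 0.46, adjusted p = 0.861). Among all genes, 18.2% lay below SMA in this way in that comparison.

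U2af1l4 codes for U2AF26, a close relative of U2AF35 that can take its place with U2AF65. Its WT libraries had 52.1, 97.4 and 117 TPM, and SMA libraries 129, 128 and 110 TPM, with overlap. SMA exceeded WT by 0.53 on the log2 scale (SE 0.34, adjusted p = 0.454), and by 0.19 without both libraries of high mitochondrial share. The treated groups spanned 98.7 to 121 TPM with MW150, 51.6 to 147 TPM with Pifithrin-α and 92.2 to 117 TPM with SMN-C3. U2af1l4 (chr7:30563301-30565365, plus strand) overlaps Psenen, a gene on the opposite strand with a mean of 281 TPM. Strand use is not given in the sources used here, so reads of these genes may not have been told apart and the U2af1l4 level is uncertain.

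Sf1, the branch-point binding protein, had 25.8, 26.2 and 30.4 TPM in WT libraries, against 36.6, 40.7 and 29.3 TPM in SMA. This log2 difference of 0.35 did not pass the test (SE 0.33, adjusted p = 0.597), and SMA 3 lay within the WT range. MW150 libraries spanned 29.4 to 41.5 TPM, Pifithrin-α libraries 14.1 to 41.4 TPM and SMN-C3 libraries 23.5 to 31.7 TPM. In each library the Sf1 gene value was 2 times the sum of its 15 transcripts found in GENCODE M21. Each of these 15 had a further transcript in the table with equal values that is not in that annotation. The same ratio was found for 124 of 11373 genes, so Sf1's level relative to other genes depends on whether these entries are counted, while its change between groups does not.

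Sf3b1, the SF3B subunit that holds the branch-point duplex, had 111, 68.3 and 79.3 TPM in WT libraries, against 88.1, 77.3 and 61.5 TPM in SMA. Its log2 change of -0.17 (SE 0.26, adjusted p = 0.748) turned to 0.024 without WT 1. Levels were 124, 90.1 and 77.5 TPM with MW150 and 96.9, 77.4 and 72.0 TPM with Pifithrin-α. With SMN-C3 they were 52.5, 67.3 and 68.3 TPM, all below the lowest WT library, 1 of them by under 0.1 TPM. That log2 change was -0.44 (SE 0.26, adjusted p = 0.678), in a comparison in which 8.82% of genes lay below WT without overlap.

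Sf3a1, a subunit of the SF3A complex, had 9.12, 9.01 and 11.0 TPM in WT libraries, against 13.0, 7.75 and 13.1 TPM in SMA. The log2 change of 0.17 (SE 0.31, adjusted p = 0.792) became -0.069 after median-of-ratios scaling. MW150 libraries had 13.4, 13.2 and 15.1 TPM, above all WT and all SMA libraries, with log2 changes of 0.48 (SE 0.31, adjusted p = 0.529) and 0.31 (SE 0.31, adjusted p = 1). Of all genes, 17.9% lay above WT and 7.53% above SMA in the same way. Pifithrin-α libraries spanned 7.55 to 12.05 TPM and SMN-C3 libraries 6.91 to 11.2 TPM.

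**Figure D4:**
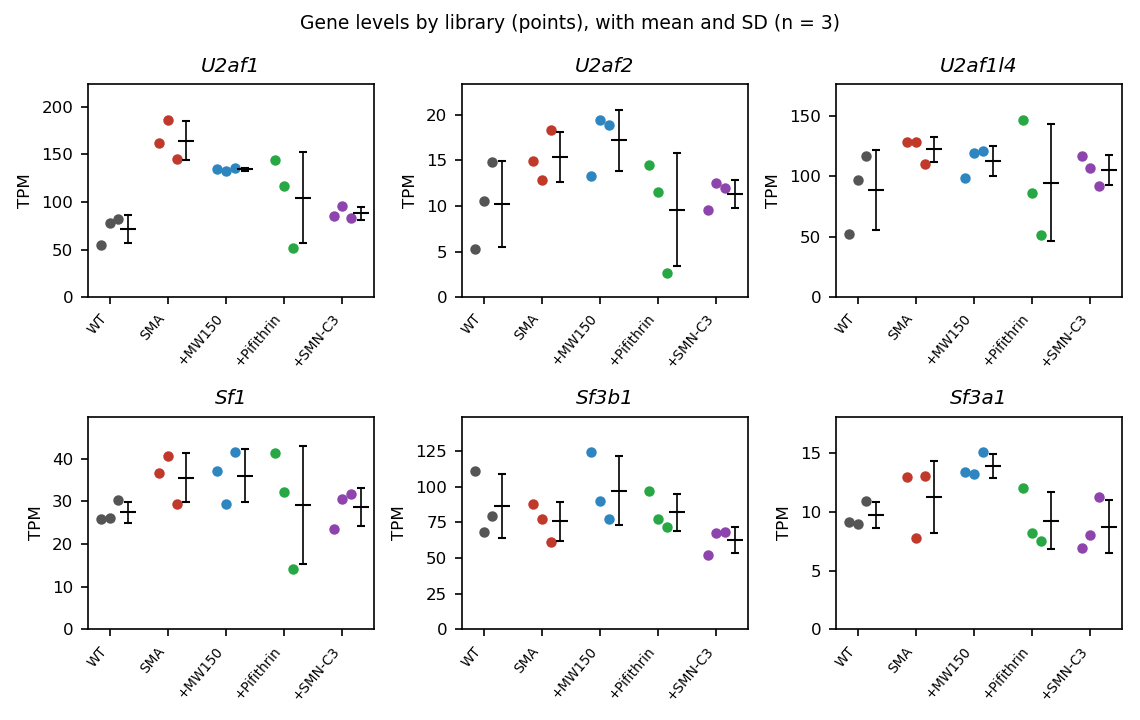
Gene levels in TPM (y axis, from 0) of U2af1 and its 5 partner genes by group, with 1 point per library and a bar for the mean and SD (n = 3). U2af1 is the one panel in which the SMA points (145 to 186 TPM) clear the WT points (54.4 to 82.4 TPM), and in each panel the lowest SMA+Pifithrin-alpha point is library 3.

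Across all 15 libraries the mean levels were 112.6 TPM for U2af1, 105 for U2af1l4, 80.8 for Sf3b1, 31.4 for Sf1, 12.8 for U2af2 and 10.6 for Sf3a1. U2af1 was above U2af1l4 in 8 of the 15 libraries and above Sf3b1 in 13, so the upper part of this order depends on the group. Sf1 lay between Sf3b1 and U2af2 in every library by the deposited gene values. Its mean and its place in this order hold only with the further Sf1 entries of equal values counted, since its gene value is 2 times its matched sum. U2af2 was above Sf3a1 in 12 of 15. SMA+Pifithrin-alpha 3 had the lowest value of all 15 for U2af1, U2af2, U2af1l4 and Sf1.

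Isoform use was examined in the 5 partner genes as the log2 ratio of a transcript to the rest of its gene. Of 168 tests (24 transcripts, 7 comparisons), 0 were called by limma and 14 had an unadjusted p under 0.05, with a lowest adjusted p of 0.378. Over all 35862 transcripts the share called was 0.00279% in SMA against WT and in SMA+SMN-C3 against WT, and 0 in the other 5 comparisons. Limma's diffSplice, which tests each gene's transcripts jointly, called 0 of 35, with 3 at an unadjusted p under 0.05. All 3 were Sf3b1, and the lowest adjusted p was 0.191. Over all genes it called 1.19% in SMA against WT, 0, 0.182% and 0.139% with MW150, Pifithrin-α and SMN-C3 against SMA, and 0.396%, 0.332% and 0.536% against WT in the same order.

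The Sf3b1 transcripts described next were chosen after their values were seen. Sf3b1-201, the protein-coding message, made up 41.2%, 37.9% and 40.3% of Sf3b1 in WT and 61.2%, 56.5% and 60.05% in SMA. Sf3b1-203, annotated as a retained intron, had 37.1, 35.2 and 40.4 TPM in WT libraries, against 26.9, 30.7 and 14.3 TPM in SMA. SMN-C3 libraries had 9.66, 24.5 and 20.4 TPM of Sf3b1-203, and MW150 libraries 53.4, 33.2 and 35.1 TPM. It fell as low as 2.01 TPM in SMA+Pifithrin-alpha 3. The WT and SMA libraries did not overlap in either transcript measure. In that comparison 7.13% of all tested transcripts lay higher without overlap by their ratio to the rest of the gene, and 4.36% lay lower by TPM. Neither transcript passed the test of isoform use. In a limma fit of log2(TPM + 1) over all transcripts, Sf3b1-205 had the lowest p of the Sf3b1 transcripts in SMA against WT. Its log2 change was -1.46 (adjusted p = 0.265), against -0.69 (adjusted p = 0.663) for Sf3b1-203.

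Among the transcripts of the other partners, U2af2-201 made up 74.9 ± 15.9% of U2af2 in WT and 71.2 ± 1.30% in SMA. U2af1l4-201 made up 71.1%, 68.3% and 65.2% of U2af1l4 in WT and 57.7%, 49.4% and 61.1% in SMA. Sf1-202 was at 61.8 ± 6.92% of the matched Sf1 transcripts in WT and 60.3 ± 1.12% in SMA. Sf3a1-201 was at 89.5 ± 13.1% and 96.7 ± 3.66% (SD, n = 3). The U2af1l4-201 shares did not overlap between WT and SMA, and 7.56% of all tested transcripts lay lower without overlap in that comparison.

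Around these genes, 25 others of 3' splice-site recognition and the U2 snRNP were examined together, namely the remaining SF3A and SF3B subunits, U2 proteins, helicases and U2AF-related factors. In SMA against WT 18 were higher and 7 lower, and 1 was called. Their median log2 change was 0.25, against 0.24 for all genes tested. Without overlap between the groups, 6 were higher and 1 lower, against 14.5% and 3.81% of all genes. At an unadjusted p under 0.05 there were 9 of the 25, against 13.5% of all genes. The list's median was thus near that of all genes, while its counts past these limits were higher than the background except among the genes that lay lower. The list was chosen with earlier results of these data known and was not tested as a set, so nothing is read from these counts. Without WT 1 the changes of Jmjd6, Puf60, Sf3a2 and Snrpb2 were smaller in size, as given below.

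The called gene was Snrpa1, which codes for a protein of the U2 snRNP. Its WT libraries had 68.9, 63.4 and 72.8 TPM, and SMA libraries 191, 122 and 159 TPM. All 12 SMA libraries, treated or not, had at least 122 TPM. The log2 change was 1.17 (SE 0.23, adjusted p = 0.030) in SMA and 1.24 (SE 0.23, adjusted p = 0.042) in SMA+Pifithrin-alpha against WT. It was 1.18 (adjusted p = 0.053) in SMA+MW150 and 1.10 (adjusted p = 0.201) in SMA+SMN-C3. The treated groups differed from SMA by -0.07 to 0.06.

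The Snrpa1 call was not stable. Leaving out 1 library at a time gave adjusted p from 0.014 to 0.232 for SMA against WT, with the lowest change at 1.02, and the call held in 5 of 15 such fits. Other settings gave 0.0090 to 0.351, and the call was absent after median-of-ratios scaling (log2 change of 0.91, adjusted p = 0.225). With both libraries of high mitochondrial share left out the adjusted p was 0.0090. For SMA+Pifithrin-alpha against WT the call held in 2 of 15 fits without 1 library, with adjusted p from 0.043 to 0.229.

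Of the other genes in the list, the largest changes in SMA against WT that missed the threshold were Sf3a2 (SF3A subunit), Snrpb2 (another U2 snRNP protein), Jmjd6 (a lysyl hydroxylase that acts on U2AF65) and Sf3b5. Sf3a2 had 3.52, 6.26 and 14.9 TPM in WT libraries, against 22.1, 20.3 and 12.8 TPM in SMA (log2 change of 1.24, SE 0.54, adjusted p = 0.352), with a change of 0.82 without WT 1. Snrpb2 had 439, 144 and 121 TPM in WT libraries, against 85.0, 88.9 and 79.9 TPM in SMA (-1.21, SE 0.47, adjusted p = 0.323). The 439 TPM is the WT library with the high mitochondrial share, without which the value was -0.64. Jmjd6 had 8.34, 26.9 and 30.7 TPM in WT libraries, against 52.2, 34.6 and 39.1 TPM in SMA. Its difference of 1.07 (SE 0.47, adjusted p = 0.355) was 0.51 without WT 1, the lowest of these libraries. Sf3b5 differed by 1.02 (SE 0.31, adjusted p = 0.221), and by 0.79 without WT 1.

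Of 4 factors related to U2AF by sequence or function, none passed the test in SMA against WT. Zrsr1 and Zrsr2, paralogs of U2af1 of which ZRSR2 acts at 3' splice sites of minor introns, differed by -0.53 (SE 0.28, adjusted p = 0.399) and -0.01 (SE 0.29, adjusted p = 0.991). Zrsr1 had 33.3, 23.2 and 29.3 TPM in WT libraries, against 15.4, 18.1 and 25.9 TPM in SMA. Puf60, a relative of U2AF65, differed by 0.77 (SE 0.35, adjusted p = 0.369), from 96.8, 186 and 213 TPM in WT to 301, 263 and 241 TPM in SMA. All SMA libraries lay above WT for Puf60, as did 14.5% of all genes, and its difference was 0.42 without WT 1. Rbm39 differed by -0.07 (SE 0.29, adjusted p = 0.912).

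In the other comparisons the list was read beside all genes in the same way. Against SMA, 16 of the 25 were higher with MW150, 10 with Pifithrin-α and 6 with SMN-C3. The medians of 0.12, -0.20 and -0.24 stood beside 0.06, -0.22 and -0.23 for all genes, and 0 of the list were called. At an unadjusted p under 0.05 there were 0, 5 and 0 of the list, against 1.9%, 10.7% and 8.53% of all genes. Without overlap, 3 lay above SMA with MW150 (7.53% of all genes), 3 with Pifithrin-α (5.53%) and 1 with SMN-C3 (2.52%). In the same order 2, 3 and 7 lay below SMA, against 3.41%, 9.76% and 18.2% of all genes.

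Against WT, 19, 15 and 16 were higher with MW150, Pifithrin-α and SMN-C3, with medians of 0.43, 0.07 and 0.09 beside 0.31, 0.020 and -0.0042. Snrpa1 in SMA+Pifithrin-alpha was the one call. At an unadjusted p under 0.05 there were 7, 2 and 1, against 10.2%, 5.78% and 7.31% of all genes. Without overlap, 11 of the 25 lay above WT with MW150, where 17.9% of all genes did. With Pifithrin-α 5 did so (4.79% of all genes) and with SMN-C3 1 (4.03%). Below WT lay 0, 0 and 1 of the list, against 2%, 2.07% and 8.82%. No test compared the list with all genes.

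**Figure D5:**
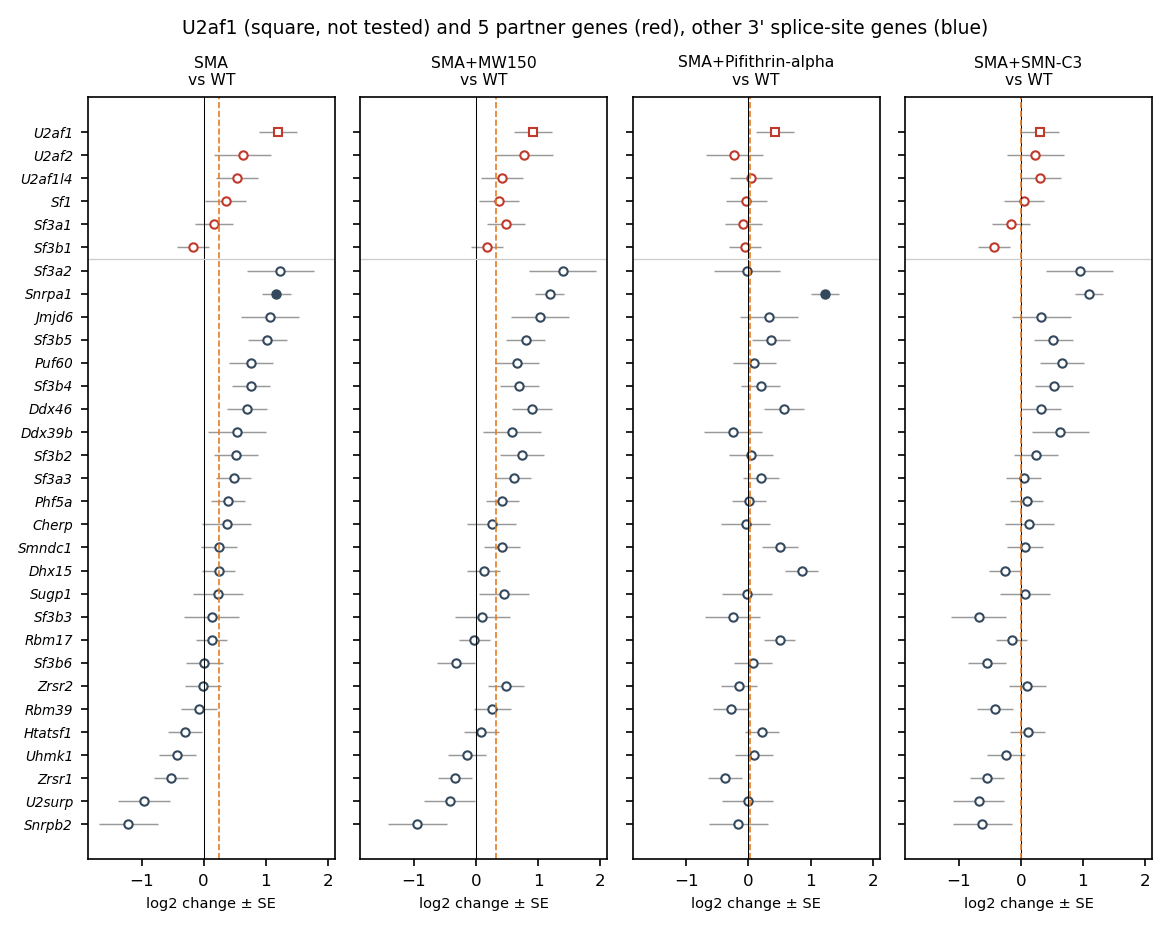
Log2 change of TPM + 1 with its standard error (x axis) for U2af1 and its 5 partners (red) and the 25 further genes (blue), in 4 comparisons with WT. Filled points passed the test, the square is U2af1, for which no test result is given, and the dashed orange line is the median of all genes tested. The U2af1 square moves from 1.20 (SMA) to 0.31 (SMA+SMN-C3), while Snrpa1 lies between 1.10 and 1.24 in all 4.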

How the data were processed

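Per the submitters' processing notes, transcripts were quantified with kallisto 0.44.0 against mouse genome GRCm38. The index, its annotation release, read trimming and strand are not given in the sources used here. Libraries were low-input poly(A) libraries read from both ends for 100 bases, per the labels' protocols. The authors deposited TPM per gene and per transcript, and every column sums to the same total. TPM carry no read numbers, so the depth behind a value is unknown and no counting interval is given. All 15 columns were used.

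Of 118489 transcripts, 116816 (98.6%) matched GENCODE M21 identifiers, and structures, coordinates and sequences come from that release (GRCm38). Values were taken as log2(TPM + 1), which understates changes of low genes. The 15425 genes that reached 1 TPM in 3 or more libraries entered 1 limma 3.58.1 fit (R 4.3.3, moderated variances with trend) with a mean per group. Tests were two-sided, with Benjamini-Hochberg adjustment over all genes in each of 7 comparisons and a threshold of 0.05. Isoform use was fitted in the same way on log2(transcript + 1) minus log2(rest of the gene + 1) for 35862 transcripts of 9337 genes. Both fits were also run on simulated data with independent noise and large shifts added to SMA only. That simulation held no shift of whole libraries and no small changes, so it does not show how the fits handle these. Summaries used pandas 2.3.3 under Python 3.11.15, and plots were drawn in matplotlib 3.10.9.

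The 6 genes and the list of 25 were chosen with earlier results of these data known. Named in the text are Smn1, the 6 genes, the 9 U2af1 transcripts, list genes called in any comparison, the 5 list genes with the largest absolute change in SMA against WT, the paralogs Zrsr1, Zrsr2, Puf60 and Rbm39, and the 5 genes most like U2af1. Alternatives were another pseudocount, other filters, median-of-ratios scaling, omission of mitochondrial genes, a replicate block, a fit of the compared groups only, leaving out each library, and, chosen after seeing the data, leaving out both libraries of high mitochondrial share.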

Additional observations from a re-analysis of the deposited data

How the results depend on the processing

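No gene among the 5 partners of U2af1, and none of their transcripts, was called under any setting run. The sign turned for Sf3b1 in SMA against WT (0.024 without WT 1 and 0.024 without both libraries of high mitochondrial share, with -0.32 to 0.024 when 1 library was left out) and for Sf3a1 (-0.069 with median-of-ratios scaling). It also turned for Rbm39 (0.084 without both libraries, and -0.30 to 0.11 when 1 library was left out) and Zrsr2 (-0.26 to 0.18 when 1 library was left out). The number of list genes called in SMA against WT was 0 with median-of-ratios scaling, without mitochondrial genes, with the replicate block and in the fit of only the groups compared, and 0 to 1 when 1 library was left out. In SMA+MW150 against WT it was 1 with a pseudocount of 0.1, with a mean of at least 5 TPM and without both libraries of high mitochondrial share, and 0 to 1 when 1 library was left out. For the same comparison the list's median was 0.11 with median-of-ratios scaling. In SMA+Pifithrin-alpha against WT the number was 0 without a filter, with median-of-ratios scaling, with the replicate block, in the fit of only the groups compared and without both libraries, and 0 to 1 when 1 library was left out. With U2af1-201 and U2af1-207 alone as the denominator, the difference in the U2af1-207 share was 47.2 points in SMA against WT, -26.7 in SMA+SMN-C3 against SMA, and 39.5 (SMA+MW150), 37.4 (SMA+Pifithrin-alpha) and 20.5 points (SMA+SMN-C3) against WT. Without centring, 2 of the 5 genes most like U2af1 were shared. The cause of these shifts was not tested. In SMA against WT 56 genes were called, 7 in the fit of only the groups compared, 35 without a filter and 88 without both libraries.

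Replicate numbers are not stated to pair the libraries, and the values gave no sign that they do. Of 30 same-numbered pairs, 4 had deviations correlated above 0.1, against 16 of 60 pairs with different numbers. Of the 15 libraries, 4 correlated best with their own number. With the replicate block 48 genes were called in SMA against WT. The fits, and the joint test of a gene's transcripts (diffSplice), were run over all genes with U2af1 among them. The U2af1 test results are not given, because U2af1 was picked with results from these same libraries in view.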
